A study of Mus musculus with 6 samples.

Results

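Mbp, Pmp22, Mag, Prx, Sox10, Egr2, Cnp and Drp2 are genes of Schwann cells, the glia of peripheral nerves, and of the myelin they wrap around axons. They were chosen by symbol, 8 of the 24421 symbols in the count table, and all 8 had enough reads to be tested, among 15988 genes tested. RNA was sequenced from cochlear explants of mice at postnatal day 2, labelled WT, in 3 control samples and 3 neomycin samples. Neomycin is an aminoglycoside antibiotic that kills hair cells (HCs). By the growth protocol the explants spent 12 h in culture, received 1 mM neomycin for 6 h and were kept for another 5 days with EdU, a label of newly made DNA, at 10 μM. That protocol text is the same for all 6 samples, and the control group is defined here by the title and the treatment label alone. Each sample was a pool of several cochleae. Nothing in the labels says that the pools came from separate litters or culture days, so the p-values measure the spread between these samples, which may be partly technical. By the study's methods the modiolus, which holds the spiral ganglion with its neurons and glia, was removed before culture together with the tectorial membrane and the early stria vascularis. Nerve fibres and glia that run out to the HCs may remain in such explants.

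Schwann cells arise from the neural crest under the transcription factor Sox10, and those that myelinate switch on Egr2, also called Krox20, which together with Sox10 turns on the myelin genes. Myelin has compact layers, held together by proteins such as Mbp and Pmp22, and noncompact parts with cytoplasm, where Mag faces the axon and Cnp keeps the cytoplasmic channels open. On the outer surface periaxin, the product of Prx, binds Drp2 and through it dystroglycan, the receptor that ties the cell to its basal lamina. Several of these genes have other uses. Sox10 is also made by melanocytes and by the epithelium of the developing cochlea, Pmp22 by fibroblasts and epithelia, and the Mbp locus also gives the golli transcripts of cells that make no myelin.

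Total counts ran from 50471116 to 66068108 reads per sample, and no library repeated another, since pairs within a group had a mean chi-square of 13.7 to 46.7 per gene. Levels are CPM, reads per library of common size after TMM scaling in edgeR, and 3 reads correspond to 0.0435 to 0.0575 CPM. The test was the quasi-likelihood test of edgeR with Benjamini-Hochberg adjustment over all genes tested, and a call needed an adjusted p under 0.05 together with a fold change over 1.5. By this rule 8.84% of all genes tested were called, 358 higher and 1055 lower after neomycin. Without the fold threshold 29.0% passed, and in 43.5% the control and neomycin values were fully apart. Log2 fold changes are neomycin over control, and their median over all genes was -0.0041. With scaling by total counts alone that median was -0.07.

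With a median log2 fold change of 0.06, the 8 genes stayed close to their control level while HC genes fell steeply. None of the 8 was called, and 1 passed the adjusted p alone: Mbp, which was 0.817-fold its control level after neomycin. Control and neomycin values overlapped in each of the 8 genes. DESeq2 and limma-voom also called 0 of the 8, and at an unadjusted p under 0.05 edgeR gave 1 gene, which was again Mbp and was under the fold threshold. For 6 of the 8 genes the 95% interval of the fold change lay wholly within 1.5-fold in either direction, as it did for 59.8% of all genes tested. The interval of Egr2 ran past 1.5-fold on the lower side, to 0.583-fold, and that of Mag on both sides, from 0.642 to 2.06. In bulk samples such as these, fewer cells of a type and less RNA per cell cannot be told apart.

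**Figure D1:**
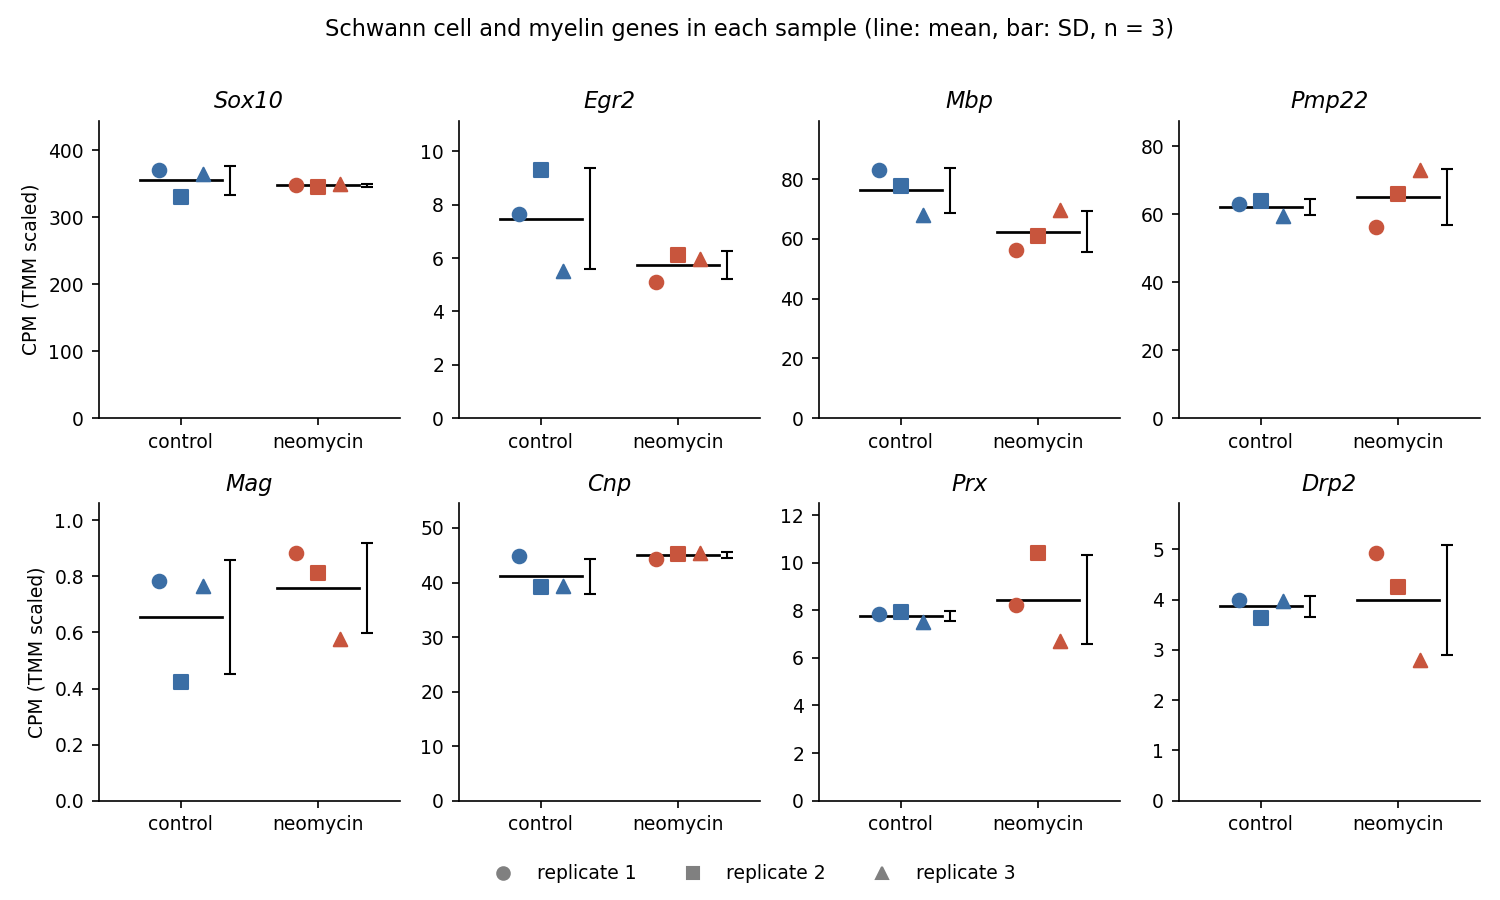
CPM (TMM-scaled reads, axis from 0) of the 8 genes in each of the 3 control and 3 neomycin samples, with the mean as a line and the SD as a bar. The groups overlap in every panel, and the neomycin values of Mbp, 56.3 to 69.8 CPM, reach into the control range of 68.0 to 83.0 CPM.

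Sox10, the lineage factor, lies on chromosome 15 from 79154908 to 79165240 on the minus strand of GRCm38, the mm10 build. Sox10 had 370, 330 and 364 CPM in control replicates 1, 2 and 3 and 348, 345 and 349 CPM in neomycin replicates 1, 2 and 3. All 3 neomycin values fell inside the control range. The means were 355 ± 21.7 CPM in control and 347 ± 1.95 CPM after neomycin (SD, n = 3), and the fold change was 0.979 with a 95% interval of 0.873 to 1.10 (edgeR, adjusted p = 0.797). With 17208 to 25538 reads in each sample it was the most precisely measured of the 8.

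Egr2, the zinc finger factor that starts myelination, is at chromosome 10 from 67535475 to 67542188 on the plus strand. Its levels were 7.64, 9.30 and 5.52 CPM in the control samples and 5.12, 6.10 and 5.96 CPM in the neomycin samples, in replicate order. Control replicates 1 and 2 were above every neomycin sample, and control replicate 3 was below 2 of the 3. The log2 fold change was -0.38 with a 95% interval of -0.78 to 0.01 (SE 0.18, edgeR, adjusted p = 0.130), so both no change and a fall of more than 1.5-fold lay within the interval. The adjusted p depended on a single library: without control replicate 3 the log2 fold change was -0.55 (edgeR, adjusted p = 0.0192), and without control replicate 2 it was -0.20 (edgeR, adjusted p = 0.494).

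Mbp encodes myelin basic protein, which sticks the inner faces of the myelin membrane together. It lies on chromosome 18 from 82475146 to 82585637 on the plus strand. Its levels were 83.0, 77.6 and 68.0 CPM in control replicates 1, 2 and 3 and 56.3, 60.9 and 69.8 CPM in neomycin replicates 1, 2 and 3. Neomycin replicate 3 was above control replicate 3, and neomycin replicates 1 and 2 were below all controls. The means were 76.2 ± 7.59 CPM and 62.3 ± 6.86 CPM (SD, n = 3). The log2 fold change was -0.29 with a 95% interval of -0.50 to -0.09 (SE 0.09, edgeR, adjusted p = 0.0367). This did not hold in every fit. Without control replicate 1 the value was -0.22 (adjusted p = 0.131), without control replicate 2 it was -0.27 (adjusted p = 0.115), without neomycin replicate 1 it was -0.22 (adjusted p = 0.114) and with neomycin replicate 2 left out it was -0.27 (adjusted p = 0.130), all by edgeR. The exons of all Mbp transcripts joined cover 8469 bases. With a correction for the trend of fold change on this length the log2 fold change was -0.14 (edgeR, adjusted p = 0.284). Single transcripts can be shorter than the joined exons, and the length of those expressed here was not measured. The direction was negative under all 16 alternatives. Counts per gene cannot separate the myelin from the golli transcripts.

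Pmp22, a membrane protein of compact myelin whose gene dose underlies inherited neuropathies, is at chromosome 11 from 63128982 to 63159547 on the plus strand. Pmp22 had 63.0, 63.9 and 59.4 CPM in the control samples and 56.4, 66 and 73.0 CPM in the neomycin samples. The neomycin values lay on both sides of the control range, and their SD of 8.36 CPM was larger than the control SD of 2.38 CPM (n = 3 each). The fold change was 1.05 with an interval of 0.916 to 1.2 (edgeR, adjusted p = 0.605).

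**Figure D2:**
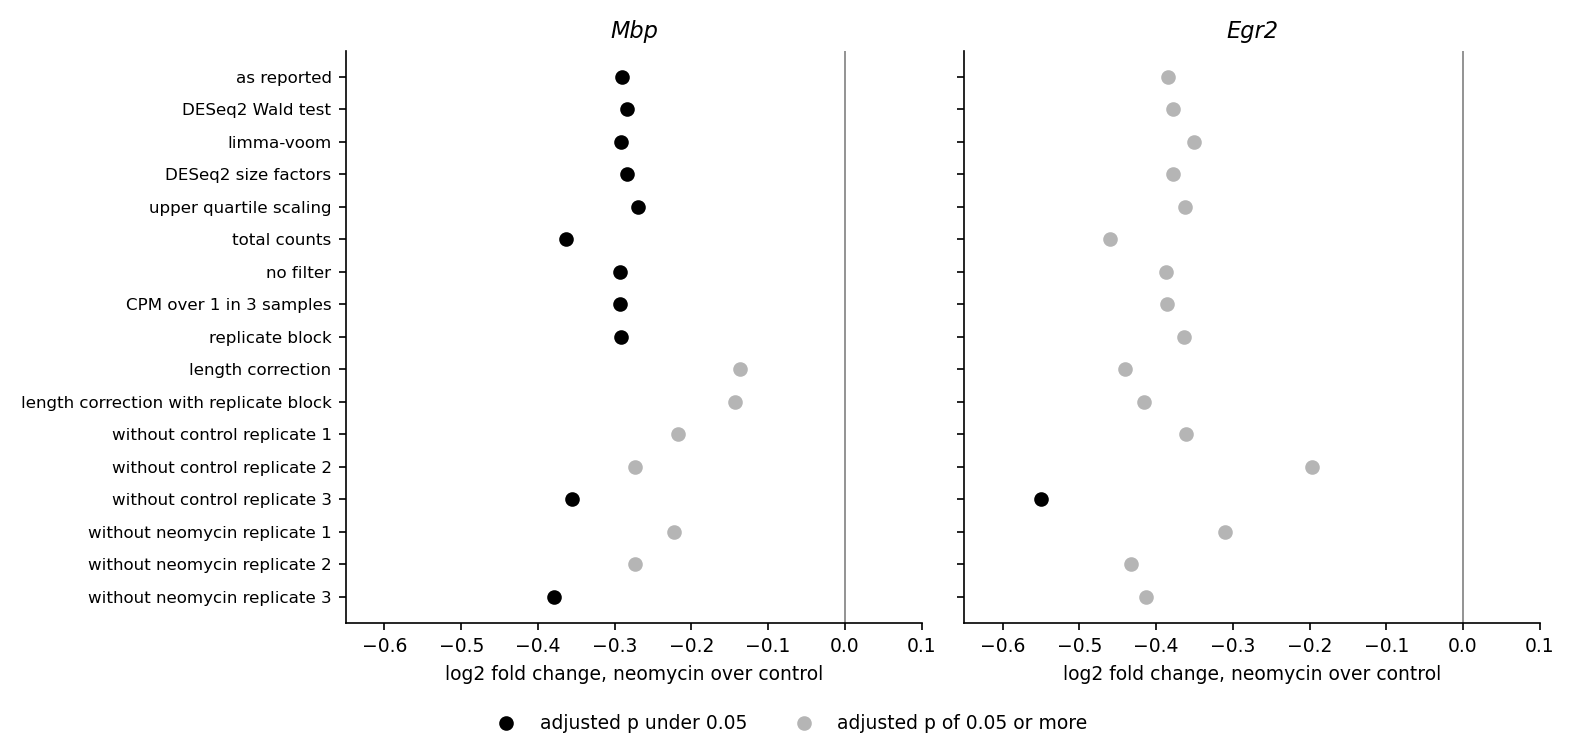
Log2 fold change of Mbp and Egr2, neomycin over control, as reported and under each of the 16 alternative fits, in black where the adjusted p was under 0.05. Mbp stayed between -0.38 and -0.14 and lost the threshold in 6 fits, and Egr2 reached it in 1 fit only, without control replicate 3.

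Mag, an adhesion protein of the membrane that faces the axon, is at chromosome 7 from 30899176 to 30914873 on the minus strand. Mag was close to the limit of these libraries, with 54, 22 and 43 reads in the control samples and 47, 48 and 31 reads in the neomycin samples. This is 0.783, 0.422 and 0.765 CPM against 0.885, 0.814 and 0.577 CPM. The groups overlapped widely. The fold change was 1.15 with an interval of 0.642 to 2.06 (edgeR, adjusted p = 0.730), so a change of 1.5-fold in either direction lay within the interval.

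Cnp encodes a phosphodiesterase of the cytoplasmic channels of myelin and lies on chromosome 11 from 100574904 to 100591729 on the plus strand. Its levels were 44.8, 39.2 and 39.4 CPM in control and 44.3, 45.3 and 45.5 CPM after neomycin. Control replicates 2 and 3 were below all neomycin samples, and control replicate 1 lay among them. The fold change was 1.09 with an interval of 0.976 to 1.23 (edgeR, adjusted p = 0.220). Dnajc7 on the opposite strand shares 154 exonic bases with Cnp, and the strand setting of the counting is not given in the sources used here, so reads there could belong to either gene. Dnajc7 had 116, 113 and 122 CPM in control and 134, 135 and 130 CPM after neomycin. Its part in the Cnp values was not tested.

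Prx, the gene of periaxin, is on chromosome 7 from 27499324 to 27520214 on the plus strand, and Gm15541 on the opposite strand shares 300 exonic bases with it. Prx had 7.85, 7.92 and 7.51 CPM in the control samples and 8.21, 10.4 and 6.72 CPM in the neomycin samples. The control samples were within 1 CPM of each other and the neomycin samples spread to both sides. The fold change was 1.09 with an interval of 0.863 to 1.38 (edgeR, adjusted p = 0.582). Drp2, the dystrophin relative that periaxin binds, is on chromosome X from 134404551 to 134456573 on the plus strand. Drp2 had 4.0, 3.62 and 3.97 CPM in control and 4.93, 4.25 and 2.79 CPM after neomycin, with a fold change of 1.03 and an interval of 0.754 to 1.42 (edgeR, adjusted p = 0.889). In both genes neomycin replicate 3 was the lowest of the 6 samples.

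The bases just before the transcription start are shown for genes of the noncompact myelin and its outer complex, since Sox10 and Egr2 act on myelin genes through short DNA motifs. RefSeq windows of the 250 bases before the RefSeq start on GRCm38.p6 were found for 5 of the 8 genes, which were Pmp22, Mag, Prx, Egr2 and Cnp. The letters searched on both strands of these windows were ACAAAG and ACAATG, which SOX proteins bind, and GCGNGGGCG, which EGR proteins bind. Capitals mark a match. Each line runs 5′ to 3′ on the gene's strand and holds only the part of the window that lies before both the RefSeq and the GENCODE start, 240 bases for Mag, 215 for Cnp and 250 for Prx. Mag is shown from chr7:30914874-30915113, minus strand, Cnp from chr11:100574689-100574903, plus strand, and Prx from chr7:27499074-27499323, plus strand.
Mag: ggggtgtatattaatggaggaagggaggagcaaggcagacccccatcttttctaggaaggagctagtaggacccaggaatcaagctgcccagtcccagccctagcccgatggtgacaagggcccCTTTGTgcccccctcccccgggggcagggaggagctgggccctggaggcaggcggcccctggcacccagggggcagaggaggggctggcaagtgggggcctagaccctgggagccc
Cnp: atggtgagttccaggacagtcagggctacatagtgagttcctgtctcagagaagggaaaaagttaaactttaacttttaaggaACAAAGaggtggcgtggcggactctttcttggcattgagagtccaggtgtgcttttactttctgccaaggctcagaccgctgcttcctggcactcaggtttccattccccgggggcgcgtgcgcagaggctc
Prx: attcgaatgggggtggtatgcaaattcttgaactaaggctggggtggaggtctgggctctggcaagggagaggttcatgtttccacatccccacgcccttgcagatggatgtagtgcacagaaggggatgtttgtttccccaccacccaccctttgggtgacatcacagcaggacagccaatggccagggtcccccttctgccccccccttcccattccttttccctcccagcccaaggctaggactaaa
Mag held the SOX letters on the opposite strand at -126 to -121 and Cnp held them at -167 to -162, both counted back from the RefSeq start and not from the end of the printed line. The windows of Pmp22, Prx and Egr2 had no match. SOX letters occur in 25.2% of all 32851 such windows of 250 bases, so 2 of 5 is no more than a description. The EGR letters were in none of the 5, and in 4.7% of all windows. A match is not a binding site, and no match says only that these letters are not in this window.

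Per kilobase of exon, with all exons of a gene joined, the 8 levels spanned a wide range in the same order in both groups. Where the transcripts expressed are shorter than the joined exons, the level is understated. Sox10 was highest with 116 ± 7.12 CPM per kb in control (SD, n = 3), 4.41 times the level of Pmp22 at 26.4 ± 1.01. Cnp followed with 11.3 ± 0.881 and Mbp with 9.0 ± 0.896 CPM per kb. Cnp was 1.26 times Mbp in control, and the ranges of this pair did not overlap in either group. The order of this pair depends on the exon lengths used. Egr2 with 2.20 ± 0.558, Prx with 1.39 ± 0.0395, Drp2 with 0.452 ± 0.0244 and Mag with 0.161 ± 0.050 CPM per kb made up the low end. After neomycin the ranges of Egr2 and Prx overlapped, at 1.69 ± 0.156 and 1.51 ± 0.334 CPM per kb. All other neighbours in the order were apart in both groups.

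**Figure D3:**
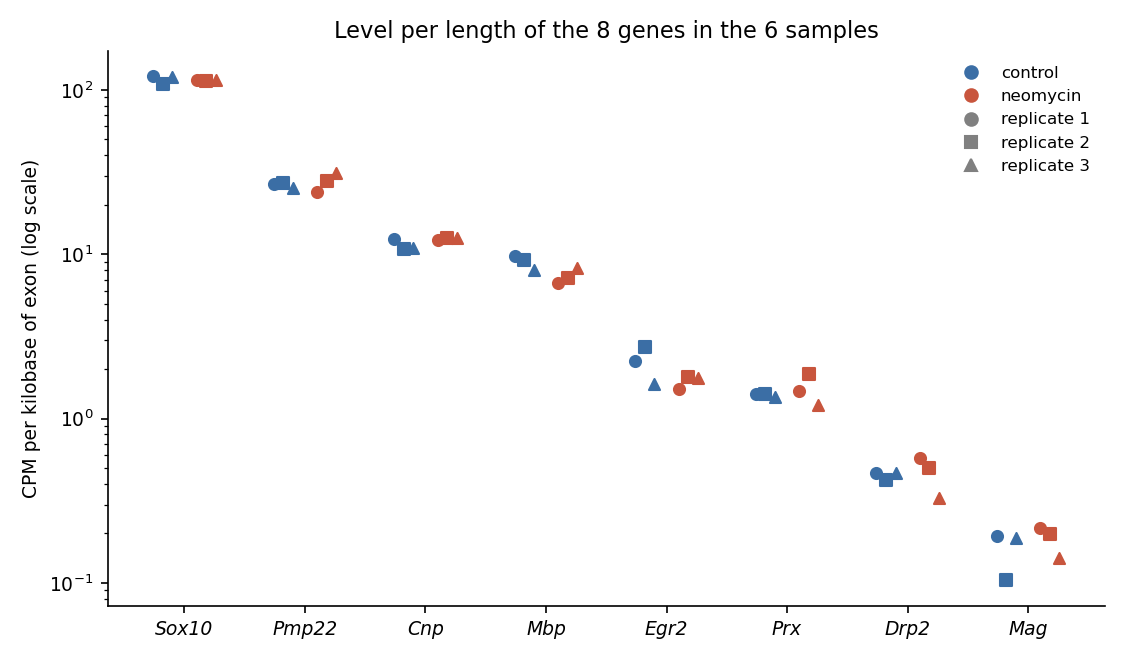
CPM per kilobase of exon (all exons of a gene joined, log axis) of the 8 genes in the 6 samples, ordered by the control mean. Sox10 sits near 116 CPM per kb and Mag near 0.161 CPM per kb in control, and neighbours are apart except Egr2 and Prx after neomycin.

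Reads of one gene per 100 Sox10 reads of the same sample do not depend on library scaling. Mbp had 21.5 ± 2.55 reads per 100 Sox10 reads in control and 17.9 ± 1.93 after neomycin (SD, n = 3), with overlapping ranges. Cnp had 12.1, 11.9 and 10.8 in the control samples and 12.7, 13.1 and 13.0 in the neomycin samples, the only one of the 7 ratios whose groups did not overlap, and 39.7% of all genes tested were apart on this measure. Reads from the exons shared with Dnajc7 could enter the Cnp ratio too. Egr2 went from 2.13 ± 0.655 to 1.65 ± 0.156 and Pmp22 from 17.6 ± 1.6 to 18.7 ± 2.39, both with overlap. Prx, Drp2 and Mag also overlapped.

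By a rule fixed for the gene of lowest adjusted p, the genes whose log2 CPM followed that of Mbp most closely over the 6 samples included Sftpd, Asf1b, Aurkb and Arhgap11a, with Pearson r of 0.994, 0.993, 0.992 and 0.986 among 14035 genes searched. Asf1b is a histone chaperone and Aurkb a kinase of cell division. The 6 points share their libraries and scaling, and these are among the 5 highest of 14035 values, given with no test.

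The other genes of the myelin sheath, a list of 16 genes of which 15 were tested, had a median log2 fold change of -0.0072. Past the adjusted p, 2 were higher and 1 was lower, 3 of 15 beside 29.0% of all genes tested. Called were 1 higher and 1 lower, or 13.3% beside 8.84% of all genes tested. Cmtm5, a membrane protein of myelinating glia, rose from 9.24 ± 0.984 to 16.6 ± 0.0476 CPM (SD, n = 3), or a log2 fold change of 0.84 (edgeR, adjusted p = 0.000227), which was 0.54 and under 1.5-fold with the length correction. Ugt8a, the enzyme that makes galactosylceramide for myelin, fell from 6.72 ± 0.364 to 3.93 ± 0.629 CPM, or a log2 fold change of -0.78 (edgeR, adjusted p = 0.00397). Cd59a, an inhibitor of complement, was the third, at 0.52 (edgeR, adjusted p = 0.00419), and it passed the fold threshold only without control replicate 1, at 0.63. With the length correction it was 0.31 (adjusted p = 0.0574). Pmp2, another protein of peripheral myelin, was at or under 0.0767 CPM in every sample. Gjb1 had the largest fold change of the list, at -1.43, and did not pass (edgeR, adjusted p = 0.103). It had 33, 17 and 36 reads in the control samples and 2, 20 and 8 reads in the neomycin samples. Cd59a, Gjb1 and Pmp2 were named after their values were seen.

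Of 23 listed regulators and markers of the Schwann lineage, 22 were tested. Past the adjusted p, 3 were higher and 3 lower, or 27.3% beside 29.0% of all genes tested, with a median log2 fold change of -0.09. Called were 2 higher and 2 lower, or 18.2% beside 8.84% of all genes tested. S100b, a calcium-binding protein of glia, had 62.6, 54.0 and 65.1 CPM in control and 118, 107 and 110 CPM after neomycin. Every neomycin sample was above every control, and the log2 fold change was 0.88 (SE 0.08, edgeR, adjusted p = 2.02e-05). Erbb3, the receptor through which axonal neuregulin drives Schwann cells, had 51.7, 47.3 and 33.3 CPM in control and 27.6, 24.3 and 19.0 CPM after neomycin, or a log2 fold change of -0.90 (SE 0.16, edgeR, adjusted p = 0.00164). Its partner Erbb2 was at 82.5 ± 7.25 and 81.7 ± 5.41 CPM (SD, n = 3), with a log2 fold change of -0.01 and an interval of -0.19 to 0.16 (edgeR, adjusted p = 0.911). Ngfr, the low-affinity neurotrophin receptor, fell from 29.9 ± 4.75 to 19.7 ± 2.85 CPM, or a log2 fold change of -0.60 (edgeR, adjusted p = 0.00477). Its fold was under 1.5 without control replicate 1, neomycin replicate 1 or neomycin replicate 3, at -0.46, -0.55 and -0.53, and with upper quartile scaling, at -0.58. Adgrg6, an adhesion receptor needed to begin myelination, was lower at -0.48 (edgeR, adjusted p = 0.00124), which was -0.26 (adjusted p = 0.0162) with the length correction. Fabp7, a fatty acid carrier of glial precursors, was higher at 0.30 (edgeR, adjusted p = 0.0221). Fabp7 lost the threshold without control replicate 2, neomycin replicate 1 or neomycin replicate 2, with adjusted p of 0.0981, 0.0611 and 0.0982, and was at 0.23 (adjusted p = 0.0751) with total counts and at 0.01 with the length correction. Both Adgrg6 and Fabp7, like Erbb2, were named after their values were seen. Bulk counts do not show which cells made these reads, and the list shares Fabp7 and Sox2 with the markers of glia-like supporting cells. Whether the changes took place in Schwann cells was not tested.

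Mia, a secreted protein of cartilage and melanoma that Schwann cells also make, was the most abundant of that list in reads. Mia rose from 1260 to 1798 CPM in the control samples to 2288 to 2605 CPM in the neomycin samples, or a log2 fold change of 0.74 (SE 0.13, edgeR, adjusted p = 0.00169). With the length correction it was 0.42 and under 1.5-fold. Mia held most of the summed level of the list, which went from 1829 to 2332 CPM over the control samples to 2882 to 3174 CPM over the neomycin samples. The summed level of the 8 myelin and Schwann cell genes overlapped, at 532 to 581 CPM and 524 to 553 CPM.

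**Figure D4:**
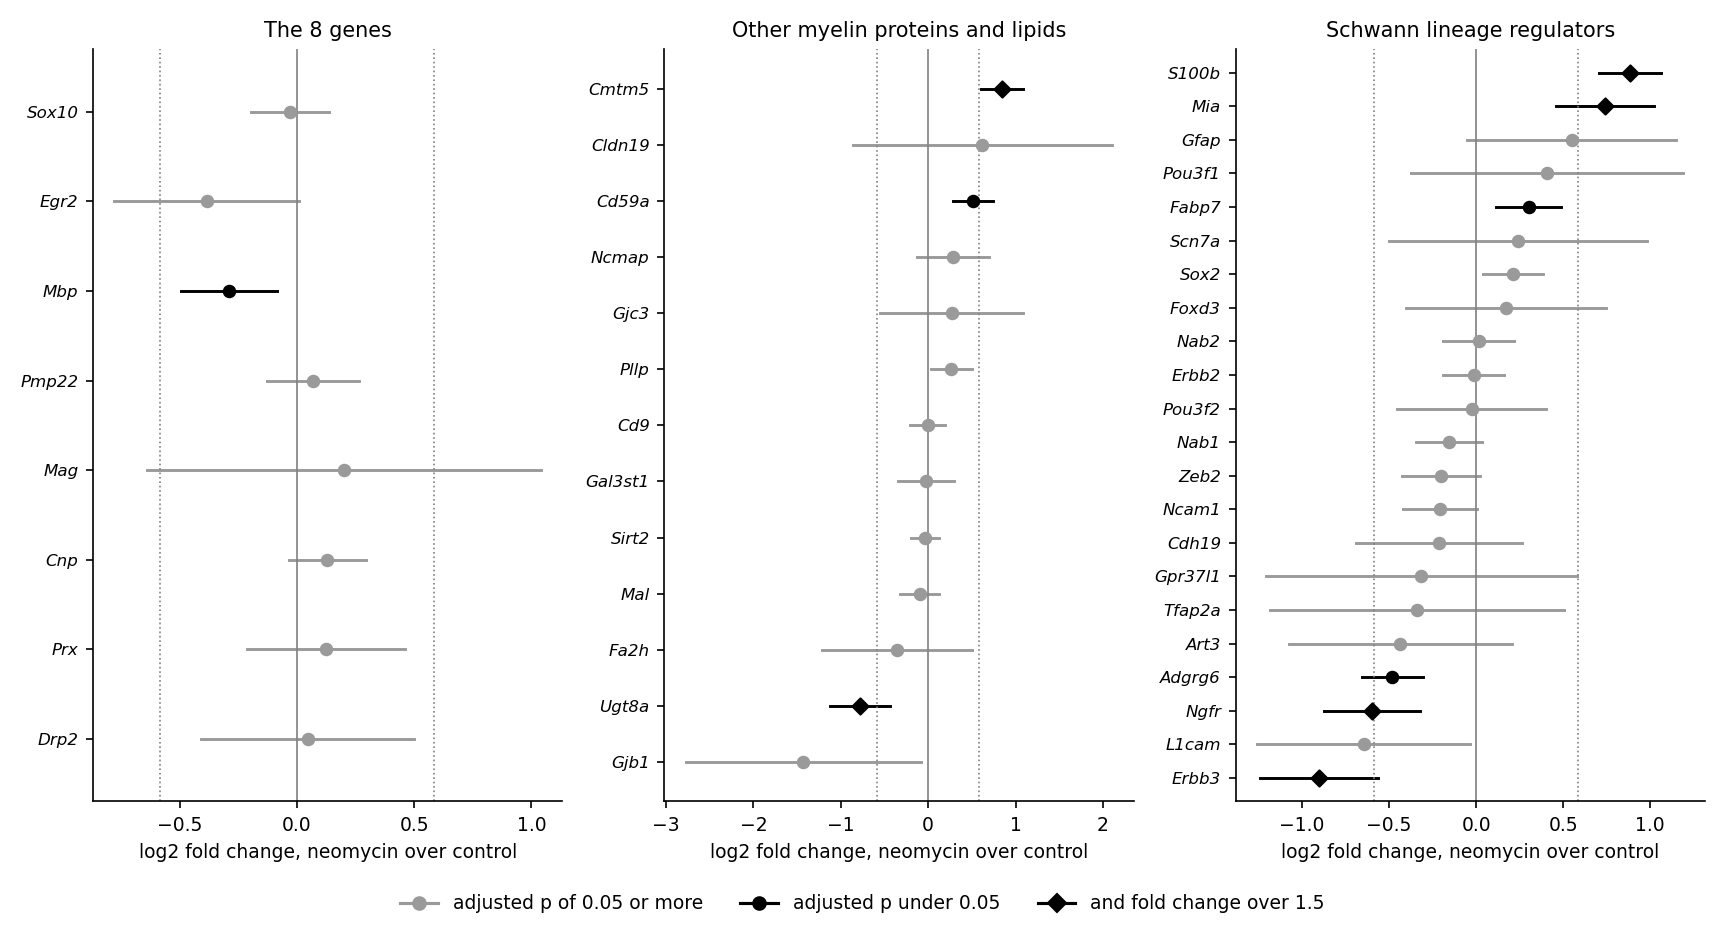
Log2 fold change, neomycin over control, with 95% intervals, for the 8 genes, 13 of the 15 tested genes of the other myelin list and the 22 tested lineage regulators. The dotted lines mark 1.5-fold, and the symbols mark the adjusted p and the fold threshold. The 8 genes lie between -0.38 and 0.20, while S100b and Erbb3 reach 0.88 and -0.90. Gjb1 of the other myelin list is the lowest point, at -1.43 (edgeR, adjusted p = 0.103).

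Of 15 listed genes that injured nerves switch on in repair Schwann cells, 13 were tested. Past the adjusted p were 4, or 30.8%, all of them lower, beside 29.0% of all genes tested. Of these, 3 were called, or 23.1% of the list tested beside 8.84% of all genes tested. The median log2 fold change was -0.10. Bdnf, a neurotrophin, fell from 15.7 ± 1.72 to 7.40 ± 0.553 CPM (SD, n = 3), or a log2 fold change of -1.09 (edgeR, adjusted p = 6.96e-05). Lif, a cytokine, fell from 10.9 ± 3.43 to 5.81 ± 1.66 CPM, or a log2 fold change of -0.90 (edgeR, adjusted p = 0.0114), and missed the threshold without control replicate 2 (-0.61, adjusted p = 0.0710) or neomycin replicate 2 (-0.75, adjusted p = 0.0612). Jun, the factor that directs the repair state, was at -0.31 (edgeR, adjusted p = 0.0170), and missed the threshold without control replicate 2 (-0.23, adjusted p = 0.0942) or neomycin replicate 1 (-0.24, adjusted p = 0.0570). Ngfr is in this list too. Other cells of the cochlea express Bdnf, Jun and Lif as well. Shh was at or under 0.0958 CPM in every sample. Jun and Shh were named after their values were seen.

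Partners of the Prx and Drp2 complex and receptors for the basal lamina were all tested, 14 of 14, with a median log2 fold change of -0.12. Past the adjusted p were 4, all of them lower, or 28.6% beside 29.0% of all genes tested, and 7.14% were called beside 8.84% of all genes. Dag1, dystroglycan itself, had 273, 229 and 217 CPM in control and 200, 184 and 167 CPM after neomycin, or a log2 fold change of -0.38 (edgeR, adjusted p = 0.0120). It had an adjusted p of 0.0553 without neomycin replicate 2 and of 0.0577 without neomycin replicate 3. Utrn, utrophin, was at -0.40 (edgeR, adjusted p = 0.0153), and Itga6, a laminin receptor subunit, at -0.30 (edgeR, adjusted p = 0.00958). With the length correction both shrank, to -0.13 (adjusted p = 0.216) and -0.14 (adjusted p = 0.111). Utrn also lost the threshold without control replicate 1 (adjusted p = 0.0598), control replicate 2 (0.0586), neomycin replicate 2 (0.0719) or neomycin replicate 3 (0.0530), and Itga6 without control replicate 2 (0.0551). Col4a1, a collagen of the basal lamina, was the only one called, at -0.60 (edgeR, adjusted p = 0.00231), and was under 1.5-fold in 7 of 16 alternatives, among them without control replicate 1 (-0.44) and without neomycin replicate 1 (-0.58). Dmd, dystrophin, had a log2 fold change of 0.01 with an interval of -0.18 to 0.20 (edgeR, adjusted p = 0.949), and with the length correction it was at 0.31 (adjusted p = 0.00723). These genes are used by most cells on a basal lamina. Dag1, Utrn, Itga6 and Dmd were named after their values were seen.

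For genes of the node of Ranvier and the paranode, where axon and glia meet, 13 of 13 were tested, with a median of -0.33. Past the adjusted p were 3, all of them lower, or 23.1% beside 29.0% of all genes tested. Called were 2, or 15.4% beside 8.84% of all genes tested. Cntn2, an adhesion protein of axons and glia beside the node, fell from 2.89 ± 0.927 to 0.647 ± 0.117 CPM (SD, n = 3), or a log2 fold change of -2.15 (edgeR, adjusted p = 0.000451). Ank3, ankyrin G, was at -0.51 (edgeR, adjusted p = 0.000878), which was -0.18 (adjusted p = 0.0776) with the length correction. Ank3 was named after its value was seen.

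Markers of other cells in the explant were read beside the 8 genes. Of 11 oligodendrocyte markers, Opalin and Nkx2-2 had 0 reads in all samples, Mog, Mobp, Olig2, Hapln2 and Gpr17 were at or under 0.145 CPM, and 4 were tested. The tested members included Myrf, a factor that switches on central myelin genes, at 8.75 ± 0.556 CPM in control and 8.09 ± 1.85 CPM after neomycin (SD, n = 3), and Ermn, a cytoskeletal protein of myelinating oligodendrocytes, at 6.90 ± 2.04 and 6.18 ± 3.77 CPM, and neither passed the adjusted p. Cldn11, a claudin that other cochlear cells also make, was in the same list at 58.8 ± 2.74 and 76.1 ± 2.57 CPM (SD, n = 3), or a log2 fold change of 0.37 (edgeR, adjusted p = 0.00232), which was 0.17 (adjusted p = 0.106) with the length correction. The single markers of this list were named after their values were seen. The summed level of that list was 69.7 to 79.1 CPM in control and 86.3 to 94.4 CPM after neomycin. Most of this sum was Cldn11, and the means of Myrf and Ermn were lower after neomycin. Of 10 melanocyte markers, which stand here because melanocytes also use Sox10, 8 were tested. Of these, 5 had positive and 3 negative log2 fold changes, with a median of 0.06. Past the adjusted p was 1, or 12.5% beside 29.0% of all genes tested. It was Kit, at -0.29 and under the fold threshold (edgeR, adjusted p = 0.0326). The summed level was 97.7 to 106 CPM in control and 89.8 to 96.3 CPM after neomycin. Kit was the highest of the list, at 59.7 ± 8.12 CPM in control and 48.7 ± 1.83 CPM after neomycin (SD, n = 3). Kit was named after its value was seen.

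The listed markers of spiral ganglion neurons changed in both directions in these explants, and whether other cells contributed to them was not tested. Of 16 spiral ganglion neuron markers 15 were tested, and 4 were higher and 4 lower past the adjusted p, or 53.3% beside 29.0% of all genes tested. The 4 called were all lower, or 26.7% beside 8.84%. Higher but under the fold threshold were Ntrk2 at 0.39, Syt1 at 0.37, Isl1 at 0.27 and Uchl1 at 0.25 (adjusted p of 0.00545, 0.0346, 0.0302 and 0.0248, edgeR). The groups overlapped for Syt1, with 65.0 CPM in control replicate 1 and 63.2 CPM in neomycin replicate 3. These 4 higher genes were named after their values were seen and were not followed through the alternative fits. Nefl, a neurofilament subunit, had 55.4, 34.7 and 31.5 CPM in control and 20.2, 15.2 and 19.7 CPM after neomycin, or a log2 fold change of -1.15 (edgeR, adjusted p = 0.000919). Nefm was at -0.89 (edgeR, adjusted p = 0.00387) and Snap25, a protein of synaptic release also found in HCs, at -1.01 (edgeR, adjusted p = 0.00206). Nefh was at -1.21 (edgeR, adjusted p = 0.0187), which became -0.65 (adjusted p = 0.0852) without control replicate 1 and -1.01 (adjusted p = 0.0630) without neomycin replicate 3. DESeq2 gave Nefh an adjusted p of 0.0658. Control replicate 1 was the highest sample for Nefl, Nefm, Nefh and Snap25 as it was for Mbp, and its part in the Mbp result is the value given above without it. The summed level of the neuron list overlapped between the groups, at 541 to 636 CPM and 574 to 639 CPM. Isl1 and Uchl1 were the highest of that list, with means of 130 and 126 CPM in control and 158 and 150 CPM after neomycin.

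HC markers were lower almost throughout. Of 18 tested, 17 were lower past the adjusted p, or 94.4% beside 29.0% of all genes tested. Called were 16, all lower, or 88.9% beside 8.84%. The median log2 fold change was -1.80, and the summed level went from 953 to 1096 CPM in control to 312 to 384 CPM after neomycin. Slc26a5, the motor protein prestin of outer HCs, was at -3.99, Ocm, a calcium buffer, at -3.41, Strc, stereocilin, at -3.11, and Otof, otoferlin, at -2.34 (adjusted p of 9.4e-09, 5.13e-08, 3.43e-08 and 2.05e-07, edgeR). Endothelial markers were lower past the adjusted p in 6 of 10, or 60% beside 29.0% of all genes tested. All 6 were called, or 60% beside 8.84% of all genes tested. Tie1 was at -2.83, Pecam1 at -2.71, Esam at -2.15 and Cdh5 at -2.05 (adjusted p of 0.000313, 2.66e-05, 0.000184 and 3.99e-06, edgeR). The summed level of the endothelial list overlapped, at 318 to 359 CPM and 306 to 359 CPM. Emcn, an endothelial sialomucin that was not among the 6, made up most of that sum, at 238 to 259 CPM in control and 245 to 298 CPM after neomycin. Among 10 mesenchyme markers Col1a1 was called lower at -1.20 and Dcn higher at 0.64 (adjusted p of 0.000469 and 0.000640, edgeR), the latter under 1.5-fold without control replicate 2 at 0.56 and with total counts at 0.57. Among 12 markers of the glia-like supporting cells of the cochlea, a list that shares members such as Fabp7 and Sox2 with those above, 3 were higher and 4 lower past the adjusted p. This was 58.3% beside 29.0% of all genes tested. Called were 2, both lower, or 16.7% beside 8.84%. Prox1 was at -1.46 and Fgfr3 at -0.66 (adjusted p of 0.00198 and 0.000129, edgeR), the latter -0.55 with the length correction, and the summed level went from 3012 to 3398 CPM to 3746 to 3891 CPM. The highest of that list in reads was S100a1, a calcium-binding protein, at 1391 to 1804 CPM in control and 2050 to 2287 CPM after neomycin. Emcn and S100a1 were named after their values were seen. The part of these cell types in the values of the 8 genes was not tested.

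**Figure D5:**
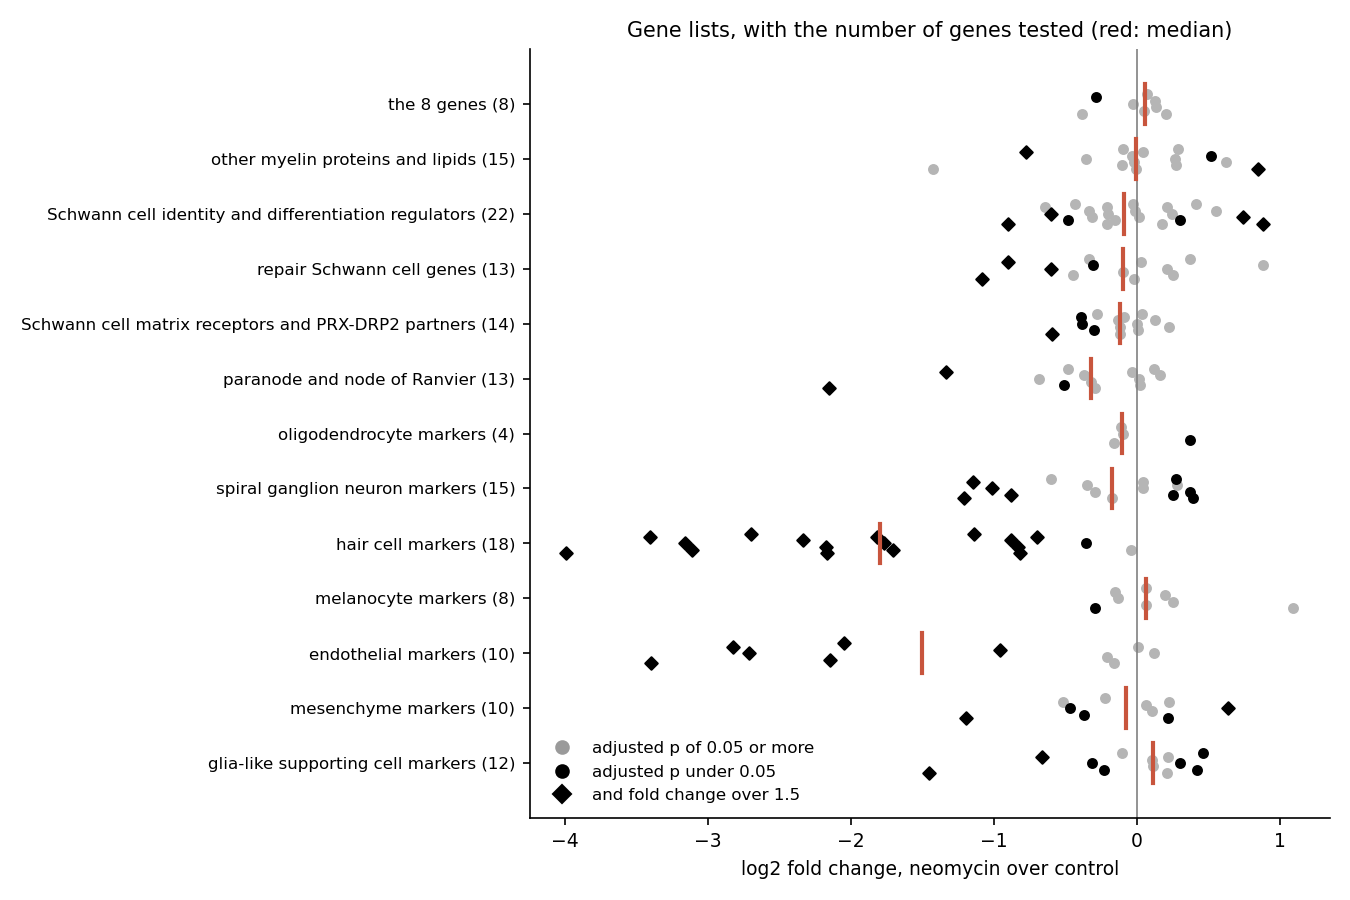
Log2 fold change, neomycin over control, of each tested gene of 13 lists, with the median of a list in red and black symbols for an adjusted p under 0.05. The 8 Schwann cell and myelin genes have a median of 0.06, and the HC and endothelial markers have medians of -1.80 and -1.51.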

How the data were processed

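RNA was measured in 6 cochlear explant samples, 3 control and 3 neomycin. The authors called bases with CASAVA 1.8, trimmed reads with Trimmomatic 0.23, aligned them to mm10 with HISAT2 and counted them per gene with HTSeq on the UCSC annotation, and deposited counts, whole reads per symbol, without normalization. The strand setting and the handling of reads with several matches are not given in the sources used here. From these counts libraries were scaled by TMM, genes were filtered with filterByExpr (minimum count 10) and tested with glmQLFit and glmQLFTest in edgeR 4.0.16 under R 4.3.3, with no covariate. DESeq2 1.42.0 and limma 3.58.1 were alternatives. Exon lengths, the union of all exons of a gene, and coordinates came from GENCODE on GRCm38, and promoters from RefSeq. The length correction removed a lowess trend (span 0.3). Code was tested on simulated data.

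The members and lists were chosen with earlier results of these data known. The genes named were the 8, up to 4 called genes of each list by adjusted p, and the 5 genes most like the one of lowest adjusted p in log2 CPM (prior count 2, mean CPM of at least 1). Some genes that this rule picks are not reported here. Others are marked as named after their values were seen. Total counts were 50471116 to 66068108, and limits given by counts cover counting error only. Same-numbered samples of the groups correlated with r of 0.17, 0.03 and 0.09 in their deviations from the group means. These values are low, but 5 of 6 samples correlated best with their own number. The main fit took no pairing, and a fit with the replicate block is given below as an alternative. Figures were drawn with matplotlib 3.10.9.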

Additional observations from a re-analysis of the deposited data

How the results depend on the processing

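Of 127 fold changes of the 8 genes under alternatives, 109 kept their direction and side of the adjusted p threshold, 6 lost it, all Mbp, 1 reached it, Egr2, and 11 changed sign, all of them at an adjusted p above 0.05. The 8 genes had 0 calls under all 18 alternatives, stricter thresholds included. The number past the adjusted p was 1 with DESeq2, limma-voom and the other scalings and filters, and 0 with the length correction and 0 with the length correction and the replicate block. It ranged from 0 to 2 with each sample left out in turn. In the paired fit with the replicate block it was 1, with Mbp at -0.29 (adjusted p = 0.0345, edgeR), and the block changed no other call among the 8. One of 3 same-numbered pairs correlated above 0.1, and 5 of 6 samples correlated best with their own number. Calls over all genes ran from 1037 to 1672, against 1413.

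Scaling by total counts turned Pmp22 to -0.0041 and Drp2 to -0.018, and the length correction turned Pmp22 to -0.078, or -0.080 with the replicate block. With each sample left out in turn the log2 fold change ran from -0.13 to 0.25 for Drp2, -0.022 to 0.16 for Pmp22, -0.025 to 0.36 for Mag, -0.056 to 0.26 for Prx, -0.076 to 0.0074 for Sox10, -0.38 to -0.22 for Mbp and -0.55 to -0.20 for Egr2. The cause of these changes was not tested. Mag did not pass the filter of CPM over 1 in 3 samples and has no value there. Mag had 22 to 54 reads a sample, and the SE of its log2 fold change was 0.39. How much of this is counting error was not tested.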

Other observations

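Among listed genes with too few reads to be tested, and chosen after their values were seen, Gfra3, the coreceptor for artemin on neurons and Schwann cells, had 8, 2 and 7 reads in control replicates 1, 2 and 3 and 44, 40 and 1 reads in neomycin replicates 1, 2 and 3. Olig1, a factor of oligodendrocytes that is also used in injured nerves, had 10, 2 and 1 reads in control and 1, 35 and 3 reads after neomycin. Gfra3 was high in 2 of the 3 neomycin samples and Olig1 in 1 of the 3, and no test was made.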
